A study of Mus musculus with 16 samples.

Results

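Endogenous inhibitors of proteases were followed across M-MDSCs and G-MDSCs of tumor-bearing mice, as 9 genes of the 24421 counted. They were chosen by name, as the stefin A copies and the other cystatins, serpins and whey acidic proteins known from neutrophils. The stefin A genes were Stfa1, Stfa2, Stfa2l1, Stfa3 and BC100530, and the others were Slpi, Serpinb1a, Cstb and Cst3. All 9 were in the count tables. The study compared Nlrp3-deficient with wild-type (WT) C57BL/6 mice carrying B16.F10 melanoma, a mouse melanoma cell line injected under the skin. There were 4 groups of 4 libraries, namely M-MDSCs of WT mice, M-MDSCs of Nlrp3-/- mice, G-MDSCs of WT mice and G-MDSCs of Nlrp3-/- mice.

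All mice carried the tumor, so no group was free of it. M-MDSCs were sorted from the spleen as CD11b high Ly6C+ Ly6G- cells and G-MDSCs as CD11b high Ly6C- Ly6G+ cells, and each RNA sample came from 1 mouse. The Nlrp3-/- allele carries an EGFP cassette with an SV40 poly(A) signal joined to the start codon in exon 2 and is present in every cell of the animal, so the lack of Nlrp3 was not limited to myeloid cells. The drug selection cassette of that allele had been removed by crossing with a Cre strain. The methods give young adult mice matched for age and sex as the default. They also give analysis 15 days after tumor injection unless stated otherwise, and no separate day is stated for the sequenced samples. Libraries were made with a 3′ kit that reads the end of each transcript, with 15 or 17 amplification cycles that were not assigned to libraries.

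Neutrophil granules hold proteases, and neutrophils also make inhibitors that keep such proteases in check. Stefins (type 1 cystatins) are small cytosolic proteins that block cysteine cathepsins, with stefin B encoded by Cstb found in most cells, whereas in the mouse stefin A is encoded by a cluster of similar genes used mainly by myeloid cells. Cystatin C, encoded by Cst3, is the secreted cathepsin inhibitor. SLPI and SERPINB1 act on serine proteases, chiefly neutrophil elastase, cathepsin G and, for SERPINB1, proteinase 3.

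The 5 stefin A genes lie within 299 kb of mouse chromosome 16 (mm10, chr16:36156811-36455392). Of these 5 and a list of 14 further names of stefin A cluster genes, 11 were found in the GENCODE annotation. Slpi (chr2:164354070-164389095) and Cst3 (chr2:148871722-148875692) are on chromosome 2, Cstb (chr10:78425669-78427622) is on chromosome 10 and Serpinb1a (chr13:32842092-32851185) on chromosome 13. Transcripts of Stfa1 and BC100530 were 97.1% identical over 617 aligned bases and those of Stfa2 and Stfa2l1 95.7% identical over 373. Of all 75-base windows of the transcript, the read length used, 22.4% in BC100530, 10.7% in Stfa1, 7.83% in Stfa2l1 and 5.79% in Stfa2 occurred exactly in another gene, against 0 in Stfa3, Slpi, Cstb and Cst3. Counts within the pairs Stfa1 with BC100530 and Stfa2 with Stfa2l1 are therefore uncertain in how they divide between the copies. Windows that differed from another copy by at most 2 changed, added or lost bases made up 66.8%, 65.6%, 50.7% and 43.8% in BC100530, Stfa1, Stfa2l1 and Stfa2. BC100530 also shared exact windows with BC117090, and Stfa2l1 with Gm49652. The windows cover the whole transcript, whereas the kit reads its end. Serpinb1a shared 0.380% of its windows with Serpinb1b.

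Promoters of the 5 stefin A genes are shown because all of these genes had the same subset pattern, and that of Slpi because it shared the pattern from another chromosome. RefSeq promoters (GRCm38.p6) were found for 7 of the 9 genes, BC100530 under its RefSeq name Cstdc5, and not for Cstb and Serpinb1a. Each sequence runs 5′ to 3′ from 120 bases before the RefSeq start to 50 after it, and capitals mark runs of at least 12 bases present in all 5 stefin A promoters.
Stfa2l1 promoter, chr16:36156691-36156860, + strand: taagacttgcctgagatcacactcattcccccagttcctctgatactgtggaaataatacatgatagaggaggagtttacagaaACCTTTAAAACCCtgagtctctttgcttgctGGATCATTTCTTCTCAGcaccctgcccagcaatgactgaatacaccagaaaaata
Stfa2 promoter, chr16:36408314-36408483, - strand: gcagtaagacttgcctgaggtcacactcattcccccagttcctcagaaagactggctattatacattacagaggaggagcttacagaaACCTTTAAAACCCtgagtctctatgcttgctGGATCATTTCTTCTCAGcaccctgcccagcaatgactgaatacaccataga
Stfa1 promoter, chr16:36277028-36277197, + strand: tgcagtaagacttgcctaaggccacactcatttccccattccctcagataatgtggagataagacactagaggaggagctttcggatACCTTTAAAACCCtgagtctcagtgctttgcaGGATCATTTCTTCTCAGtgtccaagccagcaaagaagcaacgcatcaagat
BC100530 promoter, chr16:36367521-36367690, - strand: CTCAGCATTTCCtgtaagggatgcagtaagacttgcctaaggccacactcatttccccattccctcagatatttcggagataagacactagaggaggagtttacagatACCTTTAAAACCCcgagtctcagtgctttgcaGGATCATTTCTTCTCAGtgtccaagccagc
Stfa3 promoter, chr16:36455343-36455512, - strand: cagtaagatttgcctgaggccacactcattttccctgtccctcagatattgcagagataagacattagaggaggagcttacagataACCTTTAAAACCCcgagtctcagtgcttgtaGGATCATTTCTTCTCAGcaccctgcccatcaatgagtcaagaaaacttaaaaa
Slpi promoter, chr2:164356458-164356627, - strand: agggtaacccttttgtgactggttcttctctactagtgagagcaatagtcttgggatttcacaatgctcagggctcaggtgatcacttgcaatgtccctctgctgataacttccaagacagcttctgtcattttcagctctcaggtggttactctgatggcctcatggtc
Identity was counted over aligned bases, with gaps left out. Aligned over the full 300 bases, the Stfa1 and BC100530 promoters were 96.4% identical (279 bases aligned) and those of Stfa2 and Stfa2l1 92.9% (296 aligned). The remaining stefin A pairs were 80.7% to 85.9% identical when aligned over the full 300 bases. Over that length 4 runs were common to all 5, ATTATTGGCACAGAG, ACTCAGCATTTCC, ACCTTTAAAACCC and GGATCATTTCTTCTCAG, and of 32851 promoters in the table they occurred in 5, 10, 9 and 6. The last 2 are the capitals seen in all 5 sequences, and the others lie before the stretch shown, apart from the end of ACTCAGCATTTCC in BC100530. No capitals fall in the Slpi sequence. The letters TTTAAA, which lie inside ACCTTTAAAACCC, were in 5 of 5 stefin A promoters and in 13.2% of all promoters when both strands were searched. TTNNGNAA, a core of C/EBP sites, was in 4 of 5 against 40.7%, AGATAA, a form of the GATA-factor site, in 3 of 5 against 11.2%, TGANTCA (AP-1) in 1 of 5 against 7.81%, and GAGGAAGT (PU.1) in 0 of 5 against 3.2%. These matches describe letters in a window and were not tested as binding sites.

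Libraries held 2295967 to 6079866 counts, so that 3 counts, the smallest amount treated as measurable, corresponded to 0.349 to 1.17 CPM, the count over the TMM-scaled library size. Nlrp3 counts numbered 219 to 632 in M-MDSCs and 744 to 1365 in G-MDSCs of WT mice, and 4 to 11 and 21 to 59 in those of Nlrp3-/- mice. Summed neutrophil markers (11 genes) were 115407 to 175868 CPM in G-MDSCs and 1507 to 2620 CPM in 7 of the 8 M-MDSC libraries, while WT M-MDSC replicate 2 stood apart at 8795 CPM. In G-MDSCs most of that sum came from S100a8 and S100a9, with means of 61028 and 52250 CPM in WT and 75280 and 56622 CPM in Nlrp3-/- libraries. Summed monocyte markers (9 genes) were 5648 to 9625 CPM in M-MDSCs and 787 to 1349 CPM in G-MDSCs. Both subsets thus carried the markers of their labels.

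The first comparison asked in which subset the inhibitors are used. The 5 stefin A genes were G-MDSC genes. Stfa2l1 read 491, 240, 546 and 518 CPM in the 4 WT G-MDSC libraries and 398, 499, 437 and 606 CPM in the 4 Nlrp3-/- G-MDSC libraries. In WT M-MDSCs it had 2, 1, 0 and 0 counts, and in Nlrp3-/- M-MDSCs 4, 1, 0 and 8 counts. Every G-MDSC library was far above every M-MDSC library, and only WT G-MDSC replicate 2 was low within its group. Summed over the group, 5768 counts in WT G-MDSCs stood against 3 in WT M-MDSCs, a ratio of 3195 per effective library size with a 95% counting interval of 1093 to 15499. In Nlrp3-/- mice 8164 counts stood against 13, a ratio of 997 (583 to 1874). Such intervals cover counting error only, since amplified reads are not independent molecules.

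Stfa2 had no count in any WT M-MDSC library and 121, 175, 126 and 166 counts in WT G-MDSCs. With the limit of 3 counts over the group this was at least 326-fold higher in G-MDSCs. In Nlrp3-/- mice Stfa2 had 3 counts in M-MDSCs and 673 in G-MDSCs, a ratio of 356 (121 to 1732). Stfa1 reached 27.2 ± 4.57 CPM in WT and 37.8 ± 17.9 CPM in Nlrp3-/- G-MDSCs (SD, n = 4). All of its 6 counts in WT M-MDSCs came from replicate 2, the library with the high neutrophil markers, and the pooled ratio was 96.7 (44.0 to 265). In Nlrp3-/- mice 5 counts in M-MDSCs gave a ratio of 199 (84.9 to 616). BC100530 showed 17.8 ± 6.85 CPM in WT and 19.6 ± 6.37 CPM in Nlrp3-/- G-MDSCs, and its only 2 counts in M-MDSCs were again in WT replicate 2. Stfa3 was the least counted of the 5 stefin A genes followed here, at 7.24 ± 3.63 and 8.20 ± 1.96 CPM in WT and Nlrp3-/- G-MDSCs. It had no count in any of the 8 M-MDSC libraries, so its level in G-MDSCs was at least 53.7-fold higher in WT and at least 74.6-fold higher in Nlrp3-/- mice.

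**Figure D1:**
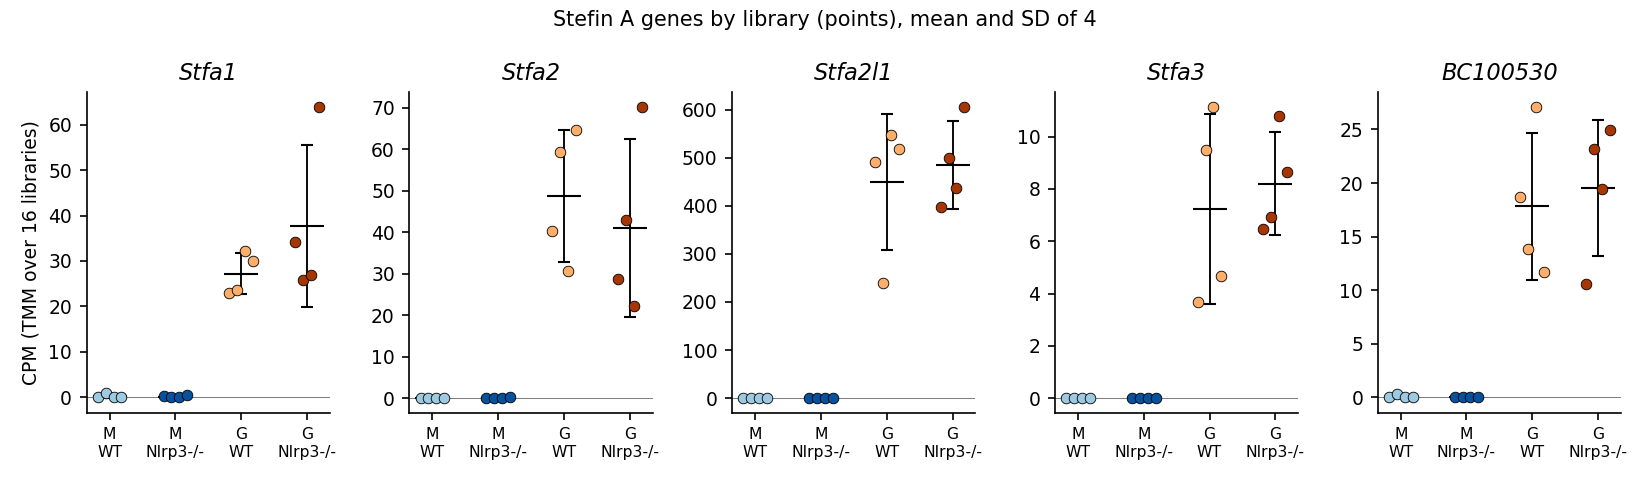
CPM of each stefin A gene (vertical axis, separate scale per gene) in the 4 groups, with 1 point per library and the mean and SD of 4 libraries in black. All G-MDSC libraries lie above all M-MDSC libraries, which sit at or near 0, and the WT and Nlrp3-/- G-MDSC libraries overlap for every gene.

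Calls came from edgeR's quasi-likelihood test, adjusted by Benjamini-Hochberg over all genes tested, and a gene was called at an adjusted p under 0.05 and a fold change above 1.5. Between the subsets 53.3% of the 9739 genes tested in WT mice were called, 26.3% higher and 27.1% lower in G-MDSCs, and in Nlrp3-/- mice 51% of 10071, 23.7% higher and 27.4% lower. Slpi and Serpinb1a, which were measured in both subsets, were called higher in G-MDSCs in both genotypes. The 5 stefin A genes passed the filter on low counts only through G-MDSCs, where they are high, so that their calls in both genotypes were set by the filter and add nothing to the levels above. For Slpi and Serpinb1a all 4 G-MDSC libraries exceeded all 4 M-MDSC libraries, as held for 25.5% of all genes tested in WT and 26.2% in Nlrp3-/- mice. The 5 stefin A genes did not overlap either, but because of the same filter they are not set beside these shares. Slpi and Serpinb1a were also called in WT mice without M-MDSC replicate 2, the library with the high neutrophil markers. The scale of this comparison depended on the normalization. When libraries were scaled by their size only, the median log2 difference of all genes moved from -0.047 to -0.79 in WT and from -0.12 to -0.83 in Nlrp3-/- mice, and the share of higher genes among those called fell from 49.2% to 18.7% and from 46.4% to 18.5%. Slpi was called and higher in G-MDSCs under that scaling too. In sorted bulk samples fewer cells of a type and less RNA per cell cannot be told apart.

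Other genes of the stefin A cluster had the same pattern. Of 14 names listed, 5 were in the tables. Those tested passed the filter only through G-MDSCs, so their counts are given with no test. Gm5483 had 282 to 1109 counts in WT G-MDSCs, 1097 to 1677 in Nlrp3-/- G-MDSCs, and at most 1 count in any M-MDSC library. Gm5416 had 15 to 54 counts in WT G-MDSCs, 75 to 112 in Nlrp3-/- G-MDSCs and none in M-MDSCs. BC117090 had 4 to 16 and 11 to 14 counts in WT and Nlrp3-/- G-MDSCs, 2010005H15Rik had 1 to 11 and 8 to 17, and M-MDSC libraries held at most 1 count of either. Csta1 had 1 count over all 16 libraries. These 5 genes were named after their values were seen.

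Within G-MDSCs Stfa2l1 was the most counted of the 5 stefin A genes. It made up 80.3% ± 7.41 of the counts of the 5 genes in WT and 82.4% ± 2.80 in Nlrp3-/- libraries (SD, n = 4). Stfa2 had 9.77% ± 5.39 and 6.64% ± 2.02 of the same counts, and Stfa1, BC100530 and Stfa3 had mean shares of 5.14%, 3.32% and 1.46% in WT. WT G-MDSC replicate 2 differed from the other 7 libraries, with 69.3% from Stfa2l1 and 17.1% from Stfa2. Because Stfa2 and Stfa2l1 share sequence, how reads divided between the pair in that library is uncertain. Over all 10 cluster genes in the tables, Stfa2l1 made up 58.3% ± 9.98 of the counts in WT and 50.1% ± 5.12 in Nlrp3-/- G-MDSCs, and Gm5483 25.6% ± 8.35 and 36.4% ± 5.83. Summed, the 5 genes took 0.0250% to 0.0498% of all counts in the WT G-MDSC libraries and 0.0384% to 0.0558% in the Nlrp3-/- ones.

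**Figure D2:**
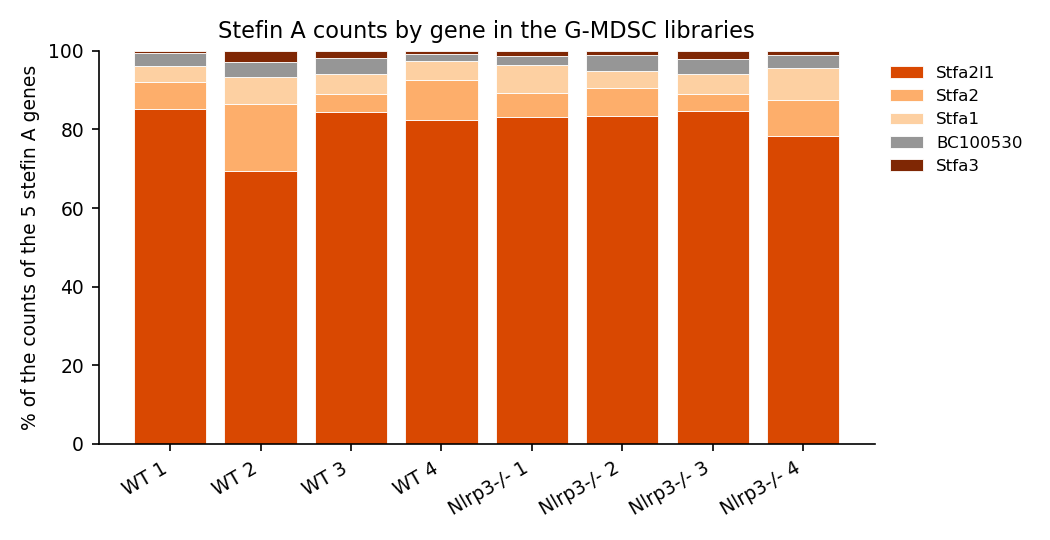
Share of the counts of the 5 stefin A genes taken by each gene (vertical axis, percent) in each of the 8 G-MDSC libraries. Stfa2l1 fills 69.3% to 85.1% of every bar, and the lowest share is that of WT replicate 2.

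No genotype difference of the stefin A genes passed the test in G-MDSCs. In G-MDSCs the log2 fold change of Nlrp3-/- over WT for Stfa2l1 was 0.027 with a standard error (SE) of 0.23 and a 95% interval of -0.46 to 0.51, which leaves room for changes of that size in either direction. It was 0.37 (-0.23 to 0.98) for Stfa1, -0.34 (-1.06 to 0.38) for Stfa2, 0.075 (-0.81 to 0.95) for Stfa3 and 0.035 (-0.66 to 0.73) for BC100530. Adjusted p-values of the 5 genes in edgeR's quasi-likelihood test ran from 0.389 to 0.953, and the libraries of both genotypes overlapped for each of them. Leaving out WT G-MDSC replicate 2, the low library, turned the Stfa2l1 value to -0.18. In M-MDSCs the counts were too few for the model, and an exact two-sided permutation test over the 4 against 4 libraries gave p = 0.286 for Stfa2l1, where the smallest possible value was 0.0286. For the other 4 genes no p under 0.05 was possible, since at most 3 of the 8 libraries held a count, so a genotype difference in M-MDSCs was not testable at this depth. Among the further cluster genes 4 were tested in G-MDSCs and 0 called by edgeR, with Gm5416 at 0.97 ± 0.35 (SE, adjusted p = 0.0734) and Gm5483 at 0.71 ± 0.33 (adjusted p = 0.151) on the log2 scale. Of these 4, 2 had an unadjusted p under 0.05 and DESeq2 called 1, and their median log2 fold change was 0.79 against 0.034 for all genes tested.

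Slpi, which encodes an inhibitor of elastase and cathepsin G, was also a G-MDSC gene but was clearly present in M-MDSCs. It read 3486, 1980, 3128 and 2261 CPM in WT G-MDSCs and 216, 109, 151 and 159 CPM in WT M-MDSCs, by replicate number. In Nlrp3-/- mice the values were 3590, 4469, 4399 and 4896 CPM in G-MDSCs and 200, 176, 229 and 260 CPM in M-MDSCs. The groups of the 2 subsets were wide apart, and in each subset the Nlrp3-/- libraries were mostly the higher ones. The log2 difference of G-MDSCs over M-MDSCs was 4.10 ± 0.28 (SE) in WT mice, a 17.1-fold difference with an adjusted p of 2.43e-07, and 4.21 ± 0.19 in Nlrp3-/- mice, 18.5-fold with an adjusted p of 6.17e-10, both by edgeR's quasi-likelihood test. Slpi took 0.143% to 0.254% of all counts in the WT G-MDSC libraries and 0.288% to 0.353% in the Nlrp3-/- ones.

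M-MDSC and G-MDSC libraries with the same replicate number also share a sample name in the labels and were taken to come from 1 mouse, although no source states it outright. On that basis the level in M-MDSCs could be set against that in G-MDSCs. Slpi in M-MDSCs was 4.82% to 7.03% of its G-MDSC level in the 4 WT mice and 3.93% to 5.56% in the 4 Nlrp3-/- mice. Stfa2l1 in the same libraries was 0% to 0.0756% and 0% to 0.170%. Cxcr2, a receptor of mature neutrophils, was 0.0222% to 0.190% and 0.0209% to 0.151%, and Csf3r, the G-CSF receptor, was 2.43% to 2.93% and 1.75% to 3.37%. Granule genes differed widely, from 0.0548% to 0.561% over the 8 pairs for Mmp9 to 25.6% to 78.3% for Cd177. The share of Slpi thus exceeded those of Stfa2l1 and Cxcr2 by over 10 times in every pair, a comparison made without a test. It lay within the spread of the granule genes. Mmp8 was above Slpi in every pair, at 12.5% to 16.2% in WT and 11.03% to 21.3% in Nlrp3-/- mice. Ngp, at 3.53% to 11.99% and 3.42% to 6.28%, fell on both sides of Slpi. Mmp9, S100a8 and S100a9 were below Slpi in every pair, and Ltf and Retnlg in most pairs. In the WT pair with number 2, whose M-MDSC library had the high neutrophil markers, S100a8 reached 5.42% and Camp 41.9%, against at most 1.63% and 9.73% in the other 7 pairs, while Slpi at 5.50% and Stfa2l1 at 0.0585% stayed within the range of the others.

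**Figure D3:**
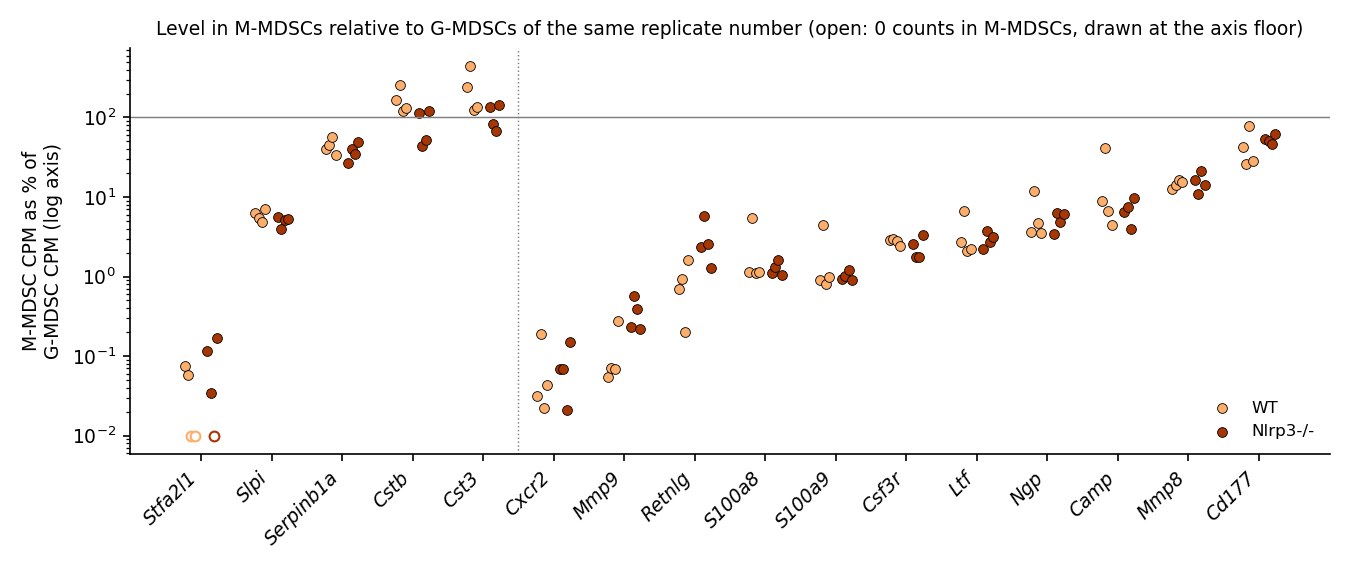
Level in M-MDSCs as a percentage of the level in G-MDSCs of the same replicate number (log axis), 1 point per number, taken as 1 mouse, with inhibitors left and neutrophil markers right of the dotted line. Slpi lies between 3.93% and 7.03% in all 8 pairs, Stfa2l1 at or below 0.170%, and Cstb and Cst3 scatter around 100%, the horizontal line.

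Slpi was the 1 inhibitor of the 9 called between genotypes, in G-MDSCs, where 16.4% of 9273 genes were called and 4.7% were called higher. All 4 Nlrp3-/- libraries lay above all 4 WT libraries, as did those of 12% of all genes tested, although the lowest Nlrp3-/- value of 3590 CPM was close to the highest WT value of 3486 CPM. The log2 fold change was 0.60 ± 0.19 (SE, 95% interval 0.18 to 1.01), a 1.51-fold difference with an adjusted p of 0.0460 by edgeR's quasi-likelihood test, near both thresholds. In M-MDSCs the difference was 0.47 ± 0.21 (0.02 to 0.93), with an unadjusted p of 0.0435 and an adjusted p of 0.152 in the same test, and was not called. Leaving out WT G-MDSC replicate 2 or 4, or Nlrp3-/- replicate 2, 3 or 4, ended the call in G-MDSCs, with adjusted p-values of 0.0946 to 0.121.

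Base composition moved with genotype in these libraries. The tilt of a library, taken as the mean log2 deviation from the subset average of the 20% of genes highest in GC content minus that of the lowest 20%, ran from -0.45 to -0.16 in the WT libraries of G-MDSCs and from 0.25 to 0.42 in the Nlrp3-/- ones, and in M-MDSCs from -0.43 to -0.075 against 0.061 to 0.50. With 54.2% GC, the Slpi transcript exceeded 73.0% of the genes examined, and its level followed the tilt with a Pearson r of 0.905 over the 8 G-MDSC and 0.806 over the 8 M-MDSC libraries, which also share the genotype difference. Once each library was corrected for GC content and transcript length, the log2 fold change of Slpi in G-MDSCs was 0.28 ± 0.19, and the adjusted p of 0.388 ended the call. Summed red pulp macrophage markers (7 genes) also did not overlap, at 417 to 585 CPM in Nlrp3-/- G-MDSCs against 156 to 253 CPM in the WT libraries, and dendritic cell markers (9 genes) stood at 1595 to 2690 CPM against 940 to 1450 CPM. In M-MDSCs the same sums were 241 to 361 CPM against 143 to 154 CPM and 1591 to 2630 CPM against 1123 to 1584 CPM. Nearly all of the dendritic cell sum came from H2-Aa, H2-Ab1, H2-Eb1 and Cd74. Flt3, Zbtb46, Xcr1, Clec9a and Siglech averaged at most 2.67 CPM each in G-MDSCs and moved in no common direction between genotypes. The part of these marker sums in the Slpi difference was not tested.

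Serpinb1a, the mouse gene for the cytosolic inhibitor of elastase, proteinase 3 and cathepsin G, was shared by both subsets at a higher level in G-MDSCs. It read 129, 189, 111 and 145 CPM in WT G-MDSCs against 52.6, 86.3, 63.9 and 49.0 CPM in WT M-MDSCs. In Nlrp3-/- mice it read 179, 114, 130 and 101 CPM in G-MDSCs and 47.9, 46.1, 44.7 and 50.4 CPM in M-MDSCs. No G-MDSC library was as low as any M-MDSC library. The log2 difference between the subsets was 1.18 ± 0.22 (SE), 2.27-fold with an adjusted p of 0.000668, in WT and 1.36 ± 0.19, 2.56-fold with an adjusted p of 4.59e-05, in Nlrp3-/- mice (edgeR's quasi-likelihood test). With libraries scaled by size only, the WT difference fell to 0.44 and missed the threshold (adjusted p = 0.0834). Genotype differences were -0.22 ± 0.21 in G-MDSCs and -0.39 ± 0.19 in M-MDSCs, with adjusted p-values of 0.505 and 0.191 in the same test.

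The serine proteases named above as targets of SLPI or SERPINB1 were distributed differently. Elane, Prtn3 and Ctsg are the genes of neutrophil elastase, proteinase 3 and cathepsin G. Of the 4 neutrophil serine protease genes examined, these were called lower in G-MDSCs in both genotypes, where 27.1% and 27.4% of all genes were. Prss57, whose product is not among the targets named above, was called higher. Elane, Prtn3 and Ctsg passed the filter on low counts in M-MDSCs but not in G-MDSCs alone, so these calls are given as a description. Prtn3 averaged 63.7 CPM in WT and 41.6 CPM in Nlrp3-/- M-MDSCs, against 2.29 and 1.13 CPM in the G-MDSCs of the same genotypes. Elane averaged 24.0 and 13.3 CPM in M-MDSCs and 0.565 and 0.824 CPM in G-MDSCs, so the G-MDSC means were close to the limit of measurement. Prss57 averaged 15.5 and 16.2 CPM in G-MDSCs against 3.04 and 1.44 CPM in M-MDSCs. Between genotypes 0 of 4 in M-MDSCs and 0 of 1 tested in G-MDSCs were called by edgeR or DESeq2, and 0 had an unadjusted p under 0.05. These proteases were named after their values were seen.

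Cstb and Cst3 were counted in every library of both subsets and were not called between them in the main fit, which was not paired. Cstb, the gene of stefin B, read 57.2, 82.4, 87.9 and 102 CPM in WT M-MDSCs and 127, 53.7, 41.6 and 116 CPM in Nlrp3-/- M-MDSCs. In G-MDSCs it read 34.1, 31.8, 73.4 and 76.7 CPM in WT and 112, 122, 80.0 and 96.0 CPM in Nlrp3-/- mice. Thus all 4 Nlrp3-/- G-MDSC libraries exceeded all 4 WT ones, while in M-MDSCs the Nlrp3-/- libraries fell on both sides of the WT range. The log2 fold change in G-MDSCs was 0.83 ± 0.28 (SE, 95% interval 0.24 to 1.43), 1.78-fold, with an adjusted p of 0.0524 by edgeR's quasi-likelihood test, just outside the threshold. In M-MDSCs it was 0.088 ± 0.34 (-0.65 to 0.83, adjusted p = 0.893). Without WT G-MDSC replicate 3 or 4 the adjusted p was 0.0260 or 0.0305, and DESeq2 gave 0.0197. With GC content and length corrected the value was 0.77 with an adjusted p of 0.0623, so its size changed little.

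Cst3, the gene of secreted cystatin C, had a wider span within 1 group than Slpi, Cstb or Serpinb1a. In Nlrp3-/- M-MDSCs it read 1428, 471, 297 and 735 CPM, a 4.81-fold span, and in WT M-MDSCs 691, 968, 1063 and 744 CPM. In G-MDSCs it read 283, 219, 846 and 546 CPM in WT and 1049, 573, 442 and 519 CPM in Nlrp3-/- mice. The groups overlapped in every comparison. Genotype differences of Cst3 were 0.36 ± 0.37 in G-MDSCs (-0.42 to 1.14, adjusted p = 0.533) and -0.19 ± 0.40 in M-MDSCs (-1.06 to 0.67, adjusted p = 0.789) on the log2 scale in edgeR's quasi-likelihood test. Cst3 transcripts hold 57.2% GC, above 87.3% of genes, and with GC content and length corrected the G-MDSC value was -0.023.

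**Figure D4:**
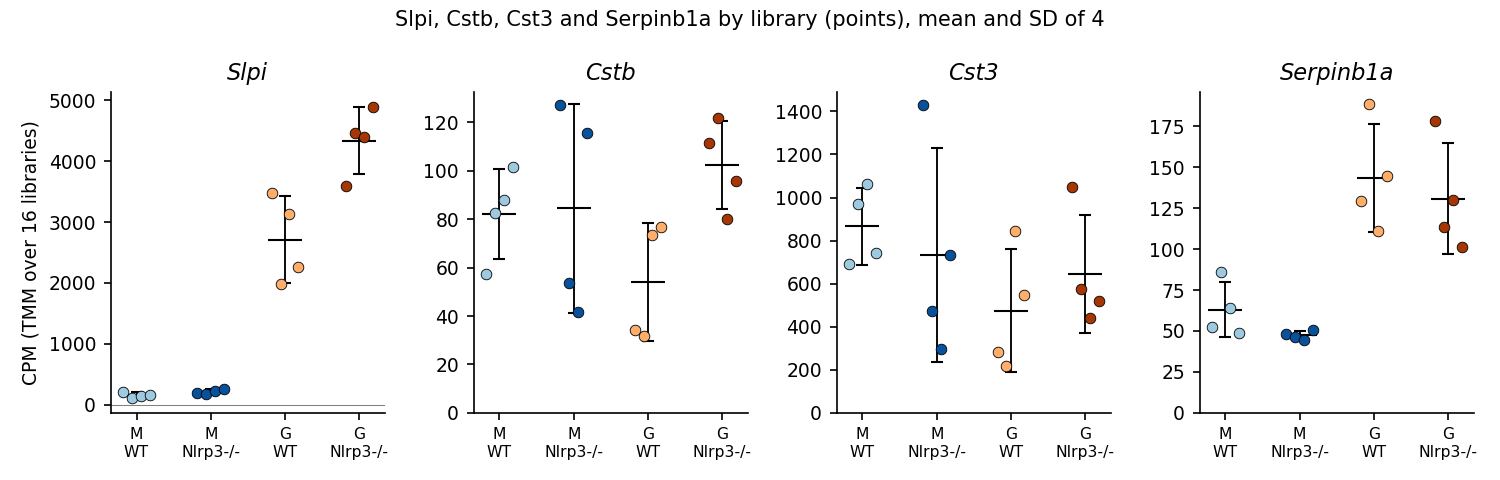
CPM of Slpi, Cstb, Cst3 and Serpinb1a (vertical axis, separate scale per gene) in the 4 groups, with 1 point per library and the mean and SD of 4 libraries in black. Slpi and Serpinb1a are higher in every G-MDSC than in every M-MDSC library, Cstb and Slpi of Nlrp3-/- G-MDSCs lie above WT G-MDSCs, and Cst3 overlaps throughout.

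Between the subsets of WT mice, the log2 differences of G-MDSCs over M-MDSCs were -0.87 ± 0.36 for Cst3 and -0.60 ± 0.30 for Cstb, with adjusted p-values of 0.0536 and 0.101 by edgeR's quasi-likelihood test, and neither was called. If libraries with the same number and sample name are taken as 1 mouse, the fit can be paired, and with that block the values were -1.04 (adjusted p = 0.00377) for Cst3 and -0.68 (adjusted p = 0.00709) for Cstb, and both were then called. The paired calls rest on that reading of the labels. In all 4 WT pairs both genes were higher in M-MDSCs, at 126% to 441% of the G-MDSC level for Cst3 and 120% to 259% for Cstb. In the Nlrp3-/- pairs they fell on both sides, at 67.3% to 142% and 44.2% to 120%, and the log2 differences were -0.31 ± 0.40 for Cst3 and 0.14 ± 0.32 for Cstb (adjusted p = 0.539 and 0.731, edgeR's quasi-likelihood test). The WT calls also appeared without pairing when M-MDSC replicate 1 (both genes, adjusted p = 0.0439 for Cst3 and 0.0485 for Cstb), G-MDSC replicate 3 (Cst3, 0.00410) or G-MDSC replicate 4 (Cstb, 0.0485) was left out. Over all alternatives, paired and unpaired, Cst3 was called in WT mice under 10 and not called under 10. Cstb was called there under 5 and not called under 15. With library size only, Cst3 in Nlrp3-/- mice was also called, at -1.04 (adjusted p = 0.0439). For Cstb in Nlrp3-/- mice the direction followed the scaling, at -0.59 with library size only and 0.59 (adjusted p = 0.0235) with the same block and the correction for GC content and length.

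**Figure D5:**
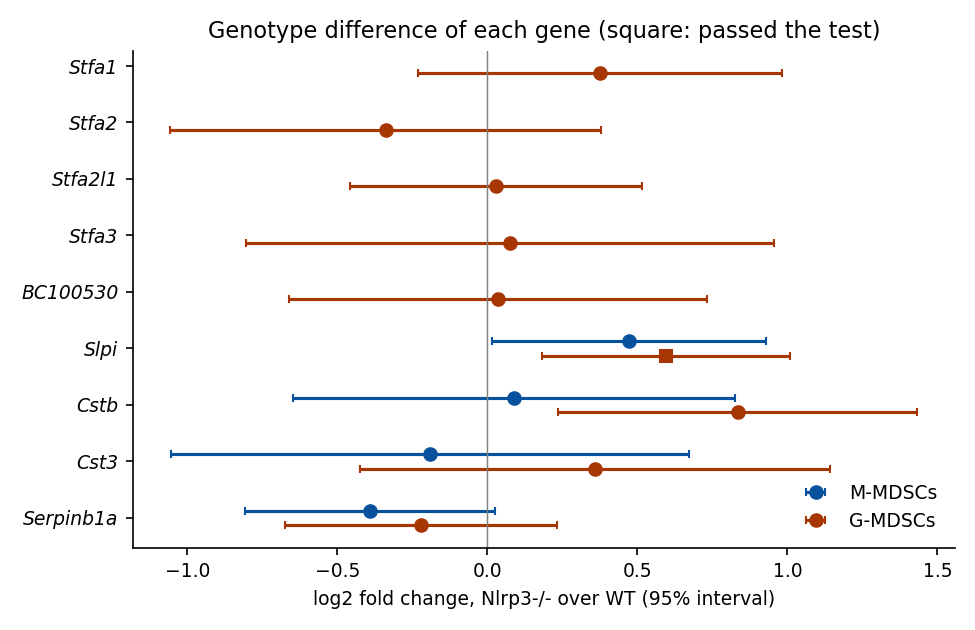
Log2 fold change of Nlrp3-/- over WT (horizontal axis) with its 95% interval for each inhibitor, in G-MDSCs (orange) and, where counts sufficed, in M-MDSCs (blue), with a square for the value that passed the test. Slpi in G-MDSCs is the only square, at 0.60, and the intervals of Cstb in G-MDSCs and of Slpi in M-MDSCs also lie above 0.

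The cysteine cathepsins, which stefins and cystatin C inhibit, and legumain, another cysteine protease, were mostly higher in M-MDSCs. Of 9 tested in WT mice, 6 (5 cathepsins and legumain, Lgmn) were called lower and 0 higher in G-MDSCs by edgeR, against 27.1% and 26.3% of all genes. DESeq2 and an unadjusted p under 0.05 also gave 6 in all. The median log2 difference was -1.63 against -0.047 for all genes tested. Of 10 tested in Nlrp3-/- mice 6, all cathepsins, were called lower and 1, Ctsl, higher, against 27.4% and 23.7% of all genes. Among these 6, Ctsf averaged 0.262 CPM in G-MDSCs against 2.20 CPM in M-MDSCs. It passed the filter on low counts in M-MDSCs but not in G-MDSCs alone, so its call was set by the filter. Ctss, the gene of cathepsin S, averaged 1900 and 1596 CPM in WT and Nlrp3-/- M-MDSCs and 195 and 191 CPM in G-MDSCs, and Ctsc, which encodes the protease that activates neutrophil serine proteases, averaged 306 and 321 CPM against 18.8 and 28.5 CPM. Between genotypes 2 of 9 were called higher in G-MDSCs, against 4.7% of all genes, Ctsz (0.78 ± 0.16, adjusted p = 0.00419) and Ctsb (0.67 ± 0.15, adjusted p = 0.00807), the gene of cathepsin B. Ctsb averaged 233 ± 26.3 CPM in Nlrp3-/- and 137 ± 17.9 CPM in WT G-MDSCs (SD, n = 4). With GC content and length corrected, Ctsz fell to 0.40 (adjusted p = 0.113) and was no longer called, whereas Ctsb was called under every alternative. The higher sums of macrophage markers and of the H2 genes with Cd74 in these Nlrp3-/- libraries, given with Slpi, move with both genes. Their part was not tested. In M-MDSCs 0 of 10 were called by edgeR or DESeq2, 2 of them with an unadjusted p under 0.05.

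Of 51 further protease inhibitors, 15 were tested in each comparison. In WT mice 6 were called higher and 3 lower in G-MDSCs, and in Nlrp3-/- mice 5 higher (Wfdc21, Timp2, Pi16, Wfdc17 and Serpinb6a) and 2 lower (Serpinb8 and Serpinb10). These totals of 9 and 7 of 15 stand beside 53.3% and 51% of all genes called. They include Serpinb8 in both genotypes and Tfpi among the lower genes in WT mice. Both passed the filter on low counts in M-MDSCs but not in G-MDSCs alone, so their calls were set by the filter and are only a description. Wfdc21, a whey acidic protein gene like Slpi, averaged 1375 and 1239 CPM in WT and Nlrp3-/- G-MDSCs against 43.5 and 23.4 CPM in M-MDSCs, and Serpinb10 averaged 125 and 121 CPM in M-MDSCs against 5.46 and 5.59 CPM in G-MDSCs. The genotype comparison called 1 higher and 1 lower of 15 in each subset, close to the 10.6% of all genes called in M-MDSCs and 16.4% in G-MDSCs. Cast, the gene of calpastatin, the inhibitor of calpains, was lower in Nlrp3-/- cells of both subsets, with a change of -1.40 ± 0.16 in G-MDSCs (adjusted p = 7.18e-05) and -1.05 ± 0.21 in M-MDSCs (adjusted p = 0.00918) on the log2 scale. Serpinb6a was higher in Nlrp3-/- G-MDSCs (1.15 ± 0.28, adjusted p = 0.0116) and Serpina3g in Nlrp3-/- M-MDSCs (1.61 ± 0.45, adjusted p = 0.0402), all by edgeR's quasi-likelihood test. Cast in G-MDSCs was called under every alternative. In M-MDSCs the correction for base composition ended the calls of Cast (-0.69, adjusted p = 0.0698) and Serpina3g (1.55, adjusted p = 0.0595), and Serpina3g also lost its call without WT replicate 3 or 4 or without Nlrp3-/- replicate 2, 3 or 4 (adjusted p = 0.0646 to 0.112). Cathepsins and further inhibitors named from the subset comparisons were picked after their values were seen.

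In M-MDSCs 0 of the 4 inhibitors with enough counts were called between genotypes by edgeR's quasi-likelihood test or by DESeq2, 1 of them with an unadjusted p under 0.05, where 10.6% of 9986 genes were called. A model over the 16 libraries tested whether the genotype difference itself differed between subsets, and 3 genes, or 0.028% of 10696, passed that test. None of the 9 inhibitors passed by edgeR or DESeq2, and 0 had an unadjusted p under 0.05. The difference of the genotype effects, G-MDSCs minus M-MDSCs, was 0.87 ± 0.47 (SE, 95% interval -0.10 to 1.85) for Cstb, 0.69 ± 0.59 for Cst3, 0.29 ± 0.29 for Serpinb1a and 0.23 ± 0.31 for Slpi on the log2 scale, each with an adjusted p of 0.992 in edgeR's quasi-likelihood test. The stefin A genes have no interpretable value there because M-MDSCs held almost no counts. The genotype and subset comparisons use the same libraries and are not independent of each other.

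Among the 8 G-MDSC libraries, deviations from the group means on the log2 scale linked Cstb with Cst3 (Pearson r = 0.859), and the same pair gave r = 0.865 over the 8 M-MDSC libraries. Serpinb1a ran against Slpi, Stfa2l1 and BC100530 in G-MDSCs, with r = -0.838, -0.839 and -0.882. Slpi ran with BC100530 and Stfa2l1 at r = 0.778 and 0.735, while Stfa1 and Stfa3, and Stfa2 and Stfa2l1, gave only 0.146 and 0.0668. These values describe 8 libraries that share depth and base composition and carry no test. Over the 16 libraries, the deviations of Cst3 were most like those of Card9 (r = 0.978), Mpeg1 and Slc25a5, those of Cstb most like Tmsb4x, Tspan14 and Smim14, and those of Slpi most like Prr13 (0.911), Lsp1 and Fxyd5. The genes most like Serpinb1a were Sgol2a (0.939), Ccna2 and Kif2c, genes of cell division. By level over the 16 libraries, which mostly reflects the subset, Slpi was closest to Ccpg1 (0.995), Stfa2l1 to H2-Q10 (0.996) and Stfa1 to Clec4d (0.994), Irg1 and Il1b.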

How the data were processed

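mRNA was measured in 16 libraries of sorted splenic M-MDSCs and G-MDSCs from WT and Nlrp3-/- tumor-bearing mice, 4 per subset and genotype. The authors aligned the reads to mm10 with HISAT2 2.1.0, counted them on genes by strand with HTSeq and deposited raw counts for 24421 gene symbols. How reads that fit several stefin copies were treated is not given in the sources used here.

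The counts were taken into edgeR 4.0.16 under R 4.3.3. Within each comparison, genes were filtered by filterByExpr, scaled by TMM and tested by the quasi-likelihood test with Benjamini-Hochberg adjustment over all genes tested, at FDR 0.05 and a fold change of 1.5. SEs were derived from the F statistic (absolute log2 fold change over the root of F), and intervals use the test's degrees of freedom. CPM were scaled by TMM over the 16 libraries, and log2 CPM used a prior count of 2. Where an M-MDSC group had 0 counts, folds are bounds against 3 counts over the group, and with few counts an exact binomial interval was used. For stefin A genes in M-MDSCs, exact permutation tests (two-sided) were run on CPM. Alternatives were DESeq2 1.42.0, edgeR's exact or likelihood ratio test, 3 other scalings, 2 other filters, no fold minimum, a model of all 16 libraries, each library left out, the replicate number as a block, and offsets for GC content and transcript length from splines with 4 degrees of freedom each. The fits were tested on simulated data. Annotation came from GENCODE (mm10), where 24069 symbols matched a transcript, and from RefSeq promoters.

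Groups and replicate numbers came from the labels. Each library is 1 mouse, and G-MDSC and M-MDSC libraries of a genotype with the same number share a sample name in the labels and were taken as the same mouse, which no source states outright. Deviations of such pairs correlated at 0.0971 to 0.397 in WT and 0.00821 to 0.382 in Nlrp3-/- mice, where number 2 was closest to number 1. Of 24 pairs of libraries within groups, 0 were identical. Ly6g was not analysed here. The 9 genes and all lists were chosen with earlier results of these data known. Named were the 9 genes, Nlrp3, at most 2 higher and 2 lower called genes per list in a genotype comparison, and the 3 genes most like each inhibitor. Other genes of the lists and the markers were named after their values were seen.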

Additional observations from a re-analysis of the deposited data

How the results depend on the processing

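Slpi was higher in G-MDSCs and passed the test in both genotypes under every alternative, including each library left out. So did the 5 stefin A genes where they were kept, but their calls were set by the filter on low counts. The filter of at least 10 counts in every library removed the stefin A genes, leaving 3 inhibitors called in WT and 2 in Nlrp3-/- mice. Leaving out 1 library gave 7 to 9 called in WT and 7 in Nlrp3-/- mice, with the 5 stefin A genes among them. Of all genes, 4838 to 5272 were then called in WT and 4810 to 5106 in Nlrp3-/- mice. With every library kept, the alternatives called 3900 to 6227 and 4054 to 6180 of all genes. For Nlrp3-/- against WT in G-MDSCs, 2 inhibitors, Slpi and Cstb, were called with DESeq2 or the exact test, with no filter or the filter of 10 counts, and with 3 scalings (upper quartile, library size only, size factors of DESeq2). None, or 0, was called with the GC content and length correction, with the replicate block or with both, and leaving out 1 library gave 0 to 2. Numbers shared by WT and Nlrp3-/- mice mark different mice, and their deviations correlated at -0.452 to 0.0177 in M-MDSCs and -0.263 to -0.0438 in G-MDSCs. This replicate block gave Slpi in G-MDSCs an adjusted p of 0.117 and turned Cstb in M-MDSCs to -0.067, or -0.055 with the correction as well. Apart from the values given here and in the report, the block changed no call of the 9 inhibitors. In M-MDSCs it ended those of Cast (-1.04, adjusted p = 0.0522) and Serpina3g (1.79, adjusted p = 0.0817), and with the correction that of Serpinb6a in G-MDSCs (1.05, adjusted p = 0.0708). In M-MDSCs Slpi, Cstb, Cst3 and Serpinb1a were tested, and each alternative called 0 of them. No log2 value that turned sign was past the threshold. Leaving out 1 library moved the M-MDSC values between -0.24 and 0.32 for Cstb and between -0.81 and 0.078 for Cst3. In G-MDSCs the range was -0.15 to 0.39 for Stfa3, -0.18 to 0.15 for Stfa2l1 and -0.11 to 0.33 for BC100530, and Cst3 was -0.023 with the GC content and length correction. Between subsets of Nlrp3-/- mice Cstb was -0.59 with library size only, -0.013 with upper-quartile scaling and -0.093 to 0.42 without 1 library, and Cst3 was 0.031 with the replicate block and the correction and -0.63 to 0.26 without 1 library. The difference of genotype effects ranged from -0.082 (without WT M-MDSC replicate 2) to 0.45 for Serpinb1a, and was not examined for the stefin A genes. Causes were not tested. With library size only, the median log2 genotype change of all genes moved from 0.066 to 0.17 in M-MDSCs and from 0.034 to 0.16 in G-MDSCs. Higher genes then made up 54.6% instead of 33.1% and 48.1% instead of 28.6% of those called. Over the alternatives, each library left out included, all genes called numbered 36 to 1783 in M-MDSCs and 382 to 1907 in G-MDSCs. With 4 libraries a group and at most 52 counts of Stfa3 in a library, changes of the size of its interval were not detectable.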
